A study of Mus musculus with 20 samples.

Results

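Matrix metalloproteinase (MMP), ADAMTS, ADAMTS-like, ADAM and TIMP genes were followed in the thoracic aorta of irradiated mice. The members were all genes of the sense-strand count table whose symbol is Mmp, Adamts, Adamtsl, Adam or Timp followed by a number, and whose mean read count over the 20 mice was 5 or more. There were 46 such genes of 66 with a matching symbol and of 21078 genes in the table, and 13124 genes of any kind passed the same minimum. The MMPs gave 11 of 17, the ADAMTS genes 13 of 18, the ADAMTS-like genes 5 of 5, the ADAMs 13 of 22 and the TIMPs 4 of 4. The other 20 had a count in at least 1 mouse but a low mean, such as Mmp27 with 4.6 reads, Adamts17 with 3.65, the macrophage elastase Mmp12 with 2.2, and the collagenases Mmp13 with 1.3 and Mmp8 with 0.4.

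Wildtype male C57BL/6 mice of 10 to 12 weeks received whole-body protons (Proton) or gamma rays (Gamma), and the aorta was taken 4 hours later. Each type had 1 mouse at each of 0, 5, 10, 25, 50, 75, 100, 125, 150 and 200 cGy, and the mice at 0 cGy were not irradiated. RNA was poly(A)-selected and sequenced by strand, and each mouse had between 6051657 and 6058006 counts. Since a dose had 1 mouse in each type, the comparison was the slope of expression on dose, given here as log2 change per 100 cGy, and the p-values measure the spread between these mice around a line.

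The MMPs are zinc proteases that cut collagens, elastin, basement membrane and other secreted proteins. The ADAMTS proteases are secreted and cut proteoglycans and procollagens, the ADAMTS-like proteins share their domains but lack the protease, and most ADAMs sit in the cell membrane and release the outer parts of other membrane proteins. TIMPs are the secreted inhibitors of these enzymes, and the balance of proteases and inhibitors is studied in aortic aneurysm and in plaque rupture.

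In the aorta the inhibitors Timp3 and Timp2 were the most abundant transcripts of the 46. Compared per length, as library-scaled counts (CPM) per kilobase of exon, Timp3, which binds to the matrix, had 245 ± 27.2 (SD, n = 20 mice) and Timp2, which also takes part in the activation of pro-MMP2, had 242 ± 33.9. These overlapped each other from mouse to mouse, and neither overlapped the third gene, Adamts10, a protease linked to fibrillin microfibrils, at 60.4 ± 9.77, whose highest mouse had 91.4 against 158 in the lowest mouse for either inhibitor.

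Below these the order was close. Mmp17, a membrane-type MMP tethered by a lipid anchor, had 58.2 ± 10.3 CPM per kb, the stromelysin Mmp3 51.6 ± 13.6, Mmp23 51.1 ± 7.82, the sheddase Adam9 46.7 ± 4.04, the gelatinase Mmp2 46.0 ± 12.8 and Adamts1 39.8 ± 13.5. Neighbours in this order differed by less than the larger of their SDs over mice. The other inhibitors were lower, with Timp1 at 16.3 ± 4.45 and Timp4 at 11.2 ± 5.07, and the lowest member was Adam23 at 0.163 ± 0.115. Summed over each family, the TIMPs held 514 CPM per kb, the MMPs 261, the ADAMTS genes 176, the ADAMs 163 and the ADAMTS-like genes 57.6, of 1171 in all.

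**Figure D1:**
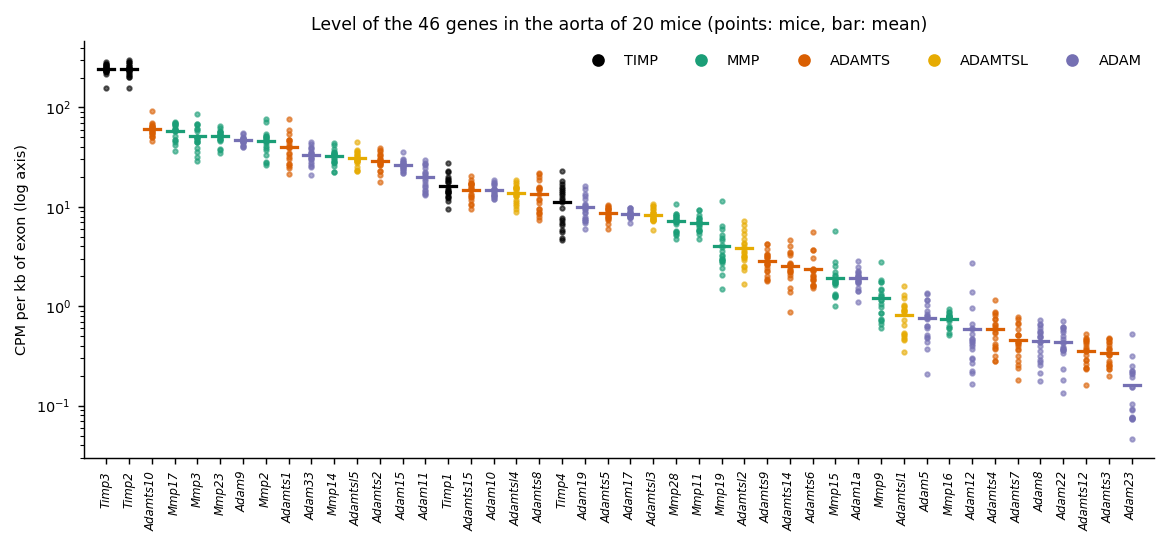
The level of each of the 46 genes in CPM per kb of exon on a log axis, with 1 point for each of 20 mice, a bar at the mean and a colour for each family. Timp3 and Timp2 stand above the rest at 245 and 242, and Adam23 is lowest at 0.163.

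The mice carried the dose response that irradiation is known to give through p53. All 4 of the p53 targets listed as a dose check, Cdkn1a, Mdm2, Aen and Ccng1, rose in both types, with common slopes of 1.49, 0.41, 0.99 and 0.89 log2 per 100 cGy. The whole-vessel markers of smooth muscle were abundant in every mouse, with sums of 26870 to 56990 CPM over 8 genes, and none of the 7 lymphocyte and thymus markers in the table reached a mean count of 5.

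Across radiation dose the members, proteases or not, fell more often than they rose. With 1 slope fitted to both types, 13 of the 46 members fell and 3 rose at an adjusted p of 0.1 or less (edgeR quasi-likelihood test, Benjamini-Hochberg over 13124 genes), where 5.77% of all tested genes fell and 11.9% rose. The median common slope of the members was -0.14 log2 per 100 cGy against 0.01 for all tested genes, and 33 of 46 were below 0 against 48.3% of all. All 16 called members had slopes of the same sign in Proton and in Gamma, as did 42 of all 46. The common slope was fitted to both types, so the call itself favours members whose types share a sign. The genes that rose were Adamts1, Adamts6 and Adam10. Those that fell were Adamts8, Adamts15, Adamts2, Adamts10, Adamtsl2, Adamtsl4, Adamtsl5, Mmp17, Mmp23, Mmp28, Adam11, Adam33 and Timp2. The tissue was bulk, so fewer cells of a type and less RNA per cell cannot be told apart.

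These calls came with a property of the libraries. In the 4 mice at 150 and 200 cGy the correlation across genes between transcript GC content and expression relative to the mean mouse was -0.401 to -0.349, against -0.0182 to 0.283 in the other 16 (9702 genes with a mean count of 50 or more), so that dose and this property cannot be told apart at the top doses. The members that fell had a GC content of 53.7 to 60.1% and those that rose one of 42.1 to 49.7%. The median was 53.5% over the 46 members and 50.4% over tested genes. Among all genes called in the common slope it was 56.87% for those that fell and 45.85% for those that rose. Over the 46 members the Pearson correlation of GC content with the common slope was -0.60 and Spearman's rho was -0.67. Over 12581 tested genes with a GC content these were -0.36 and -0.46, so the relation was not particular to the members. Both are given as a description across genes that share the same libraries. With offsets for GC content and exon length, 2 members rose (Adamts1 and Adamts6) where 6.00% of tested genes did, and 5 fell (Adamts8, Adamtsl4, Adamtsl5, Mmp28 and Adamts15) where 3.10% did. All 16 slopes kept their sign and were smaller with these offsets. For Adam10, Adamts10 and Adam33 they were under 0.5 of the size without them, at 0.05, -0.08 and -0.10. For Mmp17 and Mmp23 they were -0.13 and -0.10, while Adamts2 stood at -0.24 with offsets and -0.25 without, with an adjusted p of 0.114 in edgeR.

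Over 0 to 125 cGy alone, without those 4 mice, no member was called in the common slope in edgeR, where 0.441% of tested genes rose and 0.183% fell. The signs of 15 of the 16 slopes were as before. In 6 members, Adamts8, Adamts15, Adamts10, Mmp28, Adam11 and Adam33, the slope was at least as large in size as over all doses, for instance -0.37 ± 0.13 in Adamts15, -0.28 ± 0.10 in Adamts10, -0.40 ± 0.20 in Adam11 and -0.30 ± 0.13 in Adam33. In 6 others, Adamts6, Adam10, Adamts2, Mmp17, Mmp23 and Timp2, it was under 0.5 of that size. The fit has 16 mice and a narrower range of doses. The correlation with GC content also varied within the 16, and was highest at 5 cGy, at 0.276 in Proton and 0.283 in Gamma. At 0 cGy it was 0.0519 and 0.0237, and at 125 cGy 0.16 and 0.0223. This range is therefore not free of that property, and its part in the slopes over 0 to 125 cGy was not tested.

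**Figure D2:**
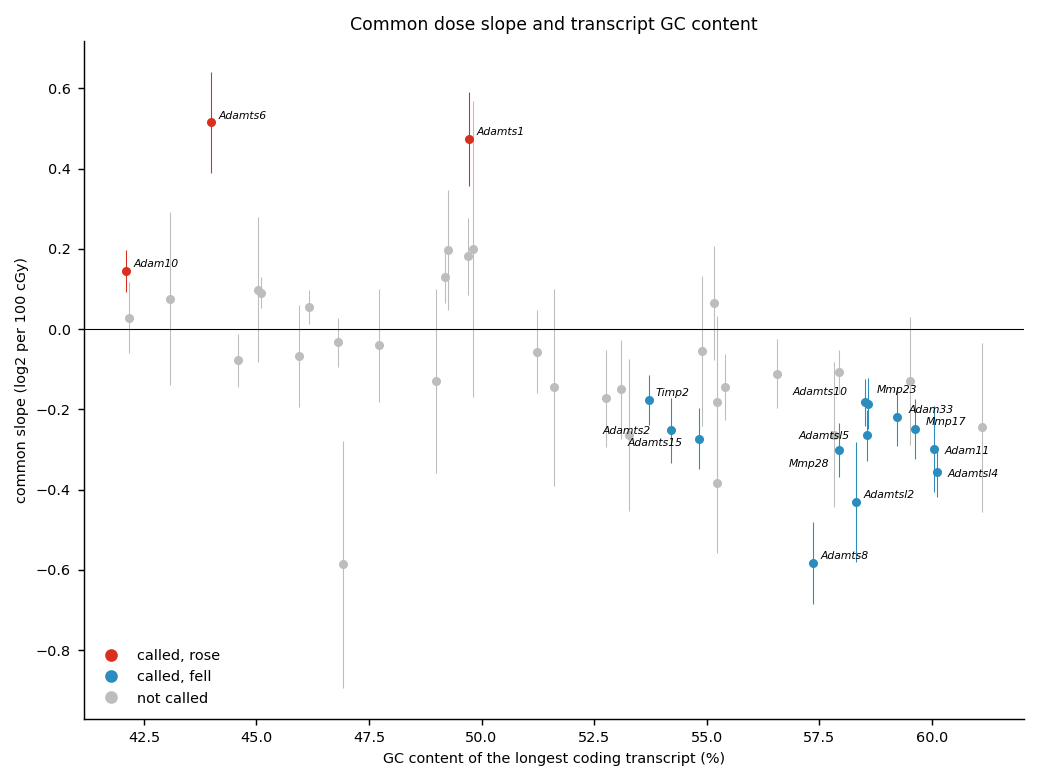
The common slope in log2 per 100 cGy, with its standard error, against the GC content of the longest coding transcript in percent for the 46 genes, coloured by call. The 13 genes that fell lie at 53.7 to 60.1% GC and the 3 that rose at 42.1 to 49.7%.

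In each type by itself fewer members passed. In Gamma 2 rose (Adamts1 and Adamts6) where 5.44% of all tested genes rose, and 3 fell (Adamts8, Adamtsl4 and Mmp28) where 2.21% fell. In Proton none rose where 1.60% of all tested genes rose, and 2 fell (Adamts8 and Adamtsl4) where 0.160% fell. The proton slope had an unadjusted p under 0.05 for 14 members and for 13.3% of all tested genes in edgeR, and DESeq2 also called none that rose.

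The slopes of the types were compared directly. No member differed between Proton and Gamma in slope in edgeR, nor did any tested gene (0.00%). At an unadjusted p under 0.05 this test gave 0 members and 254 genes, and DESeq2 called 0 members. The lowest unadjusted p of a member was 0.0662, for Timp4. At matched doses, with dose as a block, no member and 0.00% of tested genes differed in level between the types in edgeR. There 4 members (Adamts9, Adamtsl4, Mmp9 and Mmp28) and 1032 genes had an unadjusted p under 0.05, and DESeq2 called 0 members and 70 genes. DESeq2 gave no adjusted p for 11 members and 2799 genes in this comparison, so these could not be called.

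**Figure D3:**
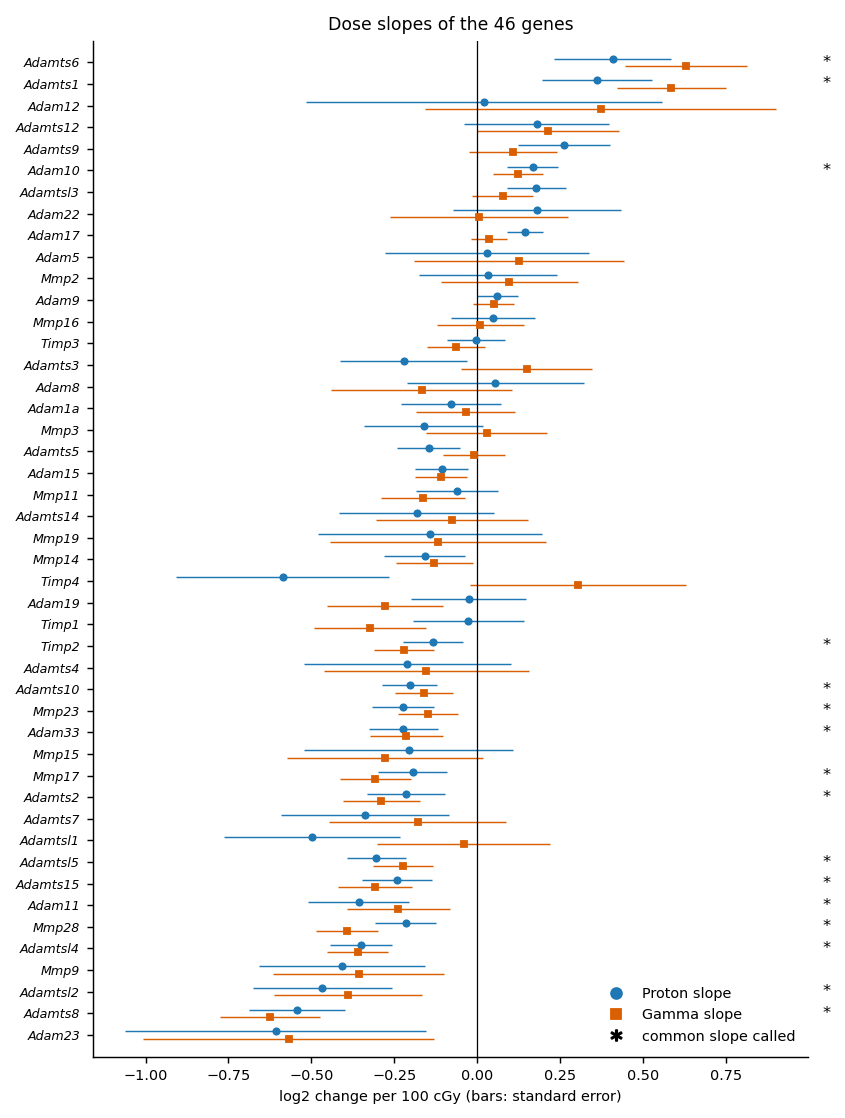
Proton and Gamma slopes of the 46 genes in log2 change per 100 cGy, with standard errors, ordered by the common slope, and a star where the common slope was called. Adamts6 and Adamts1 stand at the upper end and Adamts8 near the lower end in both types.

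Proteoglycan-cleaving ADAMTS genes moved in both directions, with 1 of 6 members rising and 2 falling in the common slope. Of all tested genes 11.9% rose and 5.77% fell. Adamts1 (ENSMUSG00000022893, mm9 chr16:85794072-85803358, minus strand) encodes a secreted protease that cuts versican and aggrecan. In Proton its counts were 1307, 859, 1104, 1509, 1039, 816, 1453, 1552, 2434 and 1272 from 0 to 200 cGy. In Gamma they were 684, 798, 1228, 980, 840, 1339, 1137, 1526, 1929 and 1709. The Gamma mice at 125 cGy and over were above all Gamma mice at lower doses, while the Proton mouse at 200 cGy was below its own control, and the mice at 150 and 200 cGy overlapped the others.

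The common slope of Adamts1 was 0.47 ± 0.12 log2 per 100 cGy (SE, adjusted p = 0.0114, edgeR), with 0.59 ± 0.17 in Gamma (adjusted p = 0.0566, edgeR) and 0.36 ± 0.17 in Proton (adjusted p = 0.356, edgeR). Of the members it was the only one to rise when the rank correlation with dose was tested by exact permutation, which needs no line: in Gamma rho was 0.88 (adjusted p = 0.0905), where 1.10% of all tested genes rose. In Proton no member rose by that test, where 0.206% of tested genes did. Over 0 to 125 cGy the common slope of Adamts1 was 0.40 ± 0.17 (adjusted p = 0.510, edgeR).

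Adamts8 (ENSMUSG00000031994, mm9 chr9:30750147-30771423, plus strand), a protease of the same group with many transcripts in lung and heart, fell most steeply of the called members. Its Proton counts were 383, 438, 437, 606, 311, 210, 338, 274, 218 and 240 in order of dose. Its Gamma counts were 553, 418, 410, 522, 587, 419, 339, 245, 269 and 234. In Gamma all mice at 100 cGy and over were below all at lower doses. In Proton the lowest was the mouse at 75 cGy, and those at 125 to 200 cGy were all below the control.

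The slope of Adamts8 was -0.54 ± 0.15 in Proton (adjusted p = 0.0898), -0.62 ± 0.15 in Gamma (adjusted p = 0.0299) and -0.58 ± 0.10 in common (adjusted p = 0.00117), all by edgeR. Over 0 to 125 cGy it was -0.67 ± 0.19 and did not pass the test (adjusted p = 0.207, edgeR). With GC and length offsets it was -0.49 ± 0.10 (adjusted p = 0.00515, edgeR). The Proton call alone was lost in 12 of the 20 omissions of a mouse, with an adjusted p of up to 0.484, and with the offsets (adjusted p = 0.220, edgeR).

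Adamts15, another versican-cleaving member, had 349 to 634 reads in Proton and 365 to 716 in Gamma, and a common slope of -0.27 ± 0.08 (adjusted p = 0.0218, edgeR), which did not pass without the Gamma mouse at 200 cGy (adjusted p = 0.116, edgeR). Of the 3 others, Adamts4, Adamts5 and Adamts9, none was called. Versican itself (Vcan), a substrate of this group and the one that rose among the 13 matrix substrates listed, had a common slope of 0.31 ± 0.09 (adjusted p = 0.0270, edgeR). In the same list Comp, a cartilage and vessel matrix protein, fell, at -0.47 ± 0.17 (adjusted p = 0.0846, edgeR). With GC and length offsets Vcan stood at 0.16 and Comp at -0.39 (adjusted p = 0.234 and 0.201, edgeR), and over 0 to 125 cGy at 0.05 and -0.07.

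Adamts6 (ENSMUSG00000046169, mm9 chr13:105077953-105284843, plus strand), a relative of Adamts10 with roles in heart development, changed at the top doses. In Proton its counts were 57, 69, 73, 61, 62, 51, 62, 72, 111 and 110 in order of dose. In Gamma they were 46, 55, 48, 57, 66, 72, 50, 50, 172 and 92. The 4 mice at 150 and 200 cGy, at 92 to 172 reads, were all above the 16 others, at 46 to 73.

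It was the only member with that pattern, which 6.80% of all tested genes showed. Its common slope was 0.52 ± 0.13 (adjusted p = 0.0107, edgeR) and its Gamma slope 0.63 ± 0.18 (adjusted p = 0.0624, edgeR). Without the Gamma mouse at 150 cGy the Gamma slope was 0.33 (adjusted p = 0.346, edgeR), and 6 of the 20 omissions of a mouse ended that call. Over 0 to 125 cGy the common slope was 0.01 ± 0.13, so the change lay at the doses where the library property above also differed. Adamts10 fell instead, at -0.18 ± 0.06 (adjusted p = 0.0446, edgeR), a call that was lost without the Gamma mouse at 200 cGy (adjusted p = 0.106, edgeR).

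**Figure D4:**
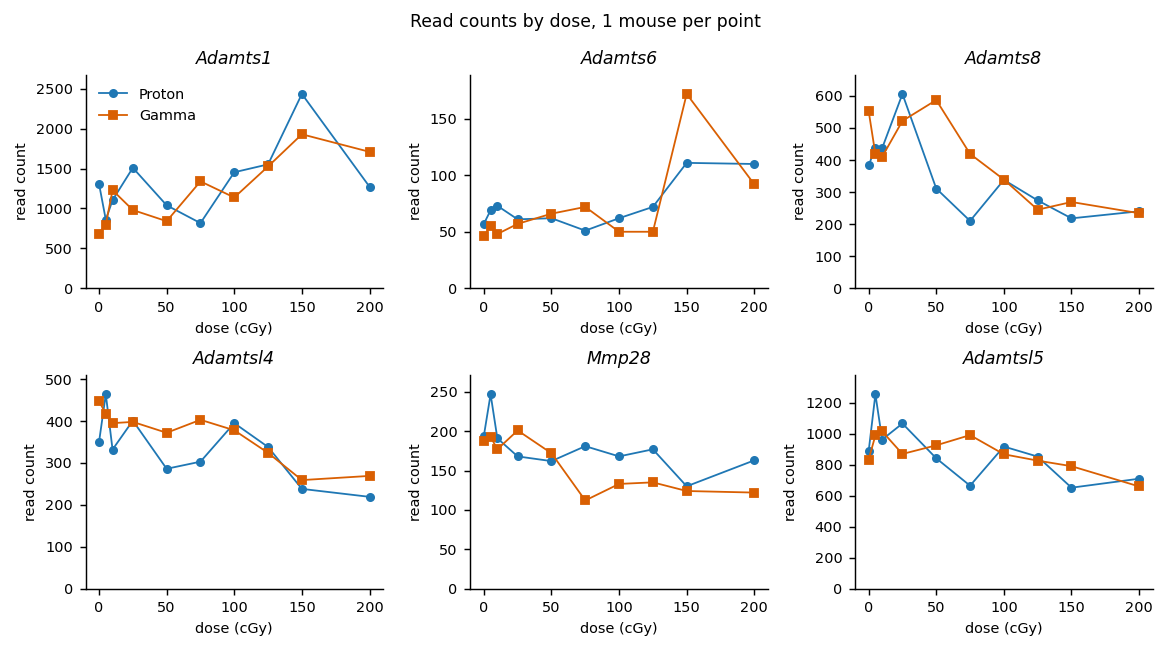
Read counts against dose in cGy for 6 members, with 1 point for each mouse and a line for each type. Adamts6 stays between 46 and 73 up to 125 cGy and lies at 92 to 172 above it, while Adamtsl4 lies at 219 to 269 in the 4 mice at 150 and 200 cGy.

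Of the procollagen-processing ADAMTS genes, which trim the ends of fibrillar procollagens, 1 of 3 fell in the common slope. Of all tested genes 5.77% did. Adamts2 had 1147 to 2279 reads in Proton with a median of 1639, and 1007 to 2100 in Gamma with a median of 1582.5. The mice at 150 and 200 cGy had 1007 to 1300, below all others at 1493 to 2279. The common slope was -0.25 ± 0.08 (adjusted p = 0.0437, edgeR), and it was -0.01 ± 0.11 over 0 to 125 cGy. The call was lost without the Proton mouse at 200 cGy or without the Gamma mouse at 150 or 200 cGy, with an adjusted p of up to 0.159 in edgeR. Adamts14 was not called, at -0.13 ± 0.16 (adjusted p = 0.708, edgeR). In the same direction Col1a1 and Col1a2, which encode the chains of type I procollagen and are 2 of the 8 fibroblast markers listed, fell with common slopes of -0.46 and -0.31 (adjusted p = 0.0393 and 0.0442, edgeR), and with 0.03 and -0.02 over 0 to 125 cGy.

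Among the COMP-cleaving genes neither passed. Adamts7 had a common slope of -0.26 ± 0.18 (adjusted p = 0.416, edgeR) and Adamts12 one of 0.20 ± 0.15 (adjusted p = 0.473, edgeR), with at most 31 and 20 reads in a mouse.

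ADAMTS-like genes fell in 3 of 5 cases in the common slope, where 5.77% of all tested genes did. Their median common slope of -0.27 was the lowest of the families. Adamtsl4 (ENSMUSG00000015850, mm9 chr3:95480124-95491840, minus strand) encodes a protein bound to fibrillin microfibrils that is known for its role in holding the eye lens. In Proton its counts were 350, 464, 332, 401, 286, 303, 395, 338, 238 and 219 in order of dose. In Gamma they were 448, 417, 395, 398, 372, 403, 378, 324, 259 and 269. The 4 mice at 150 and 200 cGy were below all others, at 219 to 269 against 286 to 464.

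That pattern was seen in 2.47% of all tested genes and in 4 members, Adamtsl4, Adamts2, Mmp14 and Adam15. The slope of Adamtsl4 was -0.35 ± 0.09 in Proton (adjusted p = 0.0870), -0.36 ± 0.09 in Gamma (adjusted p = 0.0364) and -0.36 ± 0.06 in common (adjusted p = 0.00124), by edgeR. The Proton call was lost in 12 of the 20 omissions of a mouse, with an adjusted p of up to 0.811, and with GC and length offsets (adjusted p = 0.149, edgeR). In Gamma its rank correlation with dose was -0.95 (adjusted p = 0.0540, exact permutation test), the only member that fell by that test, where 0.846% of tested genes fell, and it did not pass on counts in place of CPM. In Proton no member and 0.00% of tested genes fell by the exact test. Over 0 to 125 cGy the common slope was -0.21 ± 0.10 (adjusted p = 0.547, edgeR).

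Adamtsl5, a relative that also binds fibrillin, had 652 to 1256 reads in Proton and 660 to 1016 in Gamma. The 4 mice at 150 and 200 cGy lay at 652 to 791 and overlapped the others, which reached down to 665 in the Proton mouse at 75 cGy. Its common slope was -0.27 ± 0.06 (adjusted p = 0.00849, edgeR). Adamtsl2 had a steeper slope but more spread, at -0.43 ± 0.15 (adjusted p = 0.0650, edgeR), a call that 6 of the 20 omissions of a mouse ended, with an adjusted p of up to 0.149. Adamtsl3 was not called, at 0.13 ± 0.06 (adjusted p = 0.211, edgeR).

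The promoters of Adamts1 and Adamtsl4 are shown because these genes moved in opposite directions with gamma dose and were the members called by the exact permutation test. RefSeq promoters of 1 length that span the start site (GRCm38.p6) were found for 28 of the 46 members. Adamts1 is at chr16:85803064-85803363 on the minus strand and Adamtsl4 at chr3:95687868-95688167 on the minus strand, both written 5′ to 3′. Capitals mark the GC box (GGGCGG or CCGCCC), the TATA box (TATAAA) and the p53 half-site, searched on both strands.
Adamts1: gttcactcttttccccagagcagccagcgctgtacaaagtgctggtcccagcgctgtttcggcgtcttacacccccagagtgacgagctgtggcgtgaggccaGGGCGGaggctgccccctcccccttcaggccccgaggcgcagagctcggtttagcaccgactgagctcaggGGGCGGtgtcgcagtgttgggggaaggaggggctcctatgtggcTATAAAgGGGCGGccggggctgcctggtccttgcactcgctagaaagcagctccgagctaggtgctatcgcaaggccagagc
Adamtsl4: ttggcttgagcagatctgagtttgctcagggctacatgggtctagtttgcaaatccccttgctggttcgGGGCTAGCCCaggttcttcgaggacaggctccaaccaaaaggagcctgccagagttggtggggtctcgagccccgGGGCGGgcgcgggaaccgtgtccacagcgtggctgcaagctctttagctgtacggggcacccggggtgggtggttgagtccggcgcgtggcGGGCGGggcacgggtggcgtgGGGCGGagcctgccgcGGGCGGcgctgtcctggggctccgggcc
The Adamts1 window holds 3 GC boxes and 1 TATA box, and the Adamtsl4 window 4 GC boxes and 1 match to the p53 half-site. Of 32851 promoters of the same length, 35.7% held a GC box, 13.6% a TATA box and 8.36% a p53 half-site. The GC content of the windows was 64.7% and 68.0%, against a median of 65.3% over the 28 members and 52.7% over all promoters. A match is a description of the letters and no evidence of binding.

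Of the 11 MMPs none rose and 3 fell in the common slope, where 11.9% and 5.77% of all tested genes did. Mmp28, called epilysin, is a secreted MMP of skin and other tissues (ENSMUSG00000020682, mm9 chr11:83254270-83276573, minus strand). In Proton its counts were 194, 247, 191, 168, 162, 181, 168, 177, 130 and 163. In Gamma they were 188, 193, 177, 201, 172, 112, 133, 135, 124 and 122. All Gamma mice at 75 cGy and over were below all Gamma mice at lower doses. In Proton the lowest mouse was the one at 150 cGy, and the one at 200 cGy lay within the range of the others.

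The slope of Mmp28 was -0.39 ± 0.09 in Gamma (adjusted p = 0.0284), -0.22 ± 0.09 in Proton (adjusted p = 0.314) and -0.30 ± 0.07 in common (adjusted p = 0.00576), by edgeR. It had -0.40 ± 0.11 over 0 to 125 cGy (adjusted p = 0.194, edgeR), beside -0.30 over all doses. With GC and length offsets the Gamma slope of Mmp28 was -0.29 ± 0.09 and did not pass (adjusted p = 0.1235, edgeR). The common slope was then -0.20 ± 0.06 (adjusted p = 0.0695, edgeR).

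The membrane-bound MMPs include Mmp14, the main activator of pro-MMP2, and Mmp17. Mmp17 had 781 to 1468 reads in Proton and 895 to 1476 in Gamma, and fell with a common slope of -0.25 ± 0.07 (adjusted p = 0.0302, edgeR), a call lost without the Gamma mouse at 200 cGy (adjusted p = 0.122, edgeR). An exon of Mmp17 overlaps another gene on the same strand in the annotation. Among the members Mmp11 and Adam1a also have such an overlap. Mmp14 was not called, at -0.14 ± 0.08 (adjusted p = 0.301, edgeR), although its counts at 150 and 200 cGy, at 343 to 441, were below all others at 443 to 685. Mmp23, which has an unusual cysteine-rich tail in place of the hemopexin domain, had a common slope of -0.19 ± 0.06 (adjusted p = 0.0611, edgeR), and 5 of the 20 omissions of a mouse ended the call, with an adjusted p of up to 0.180.

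The gelatinases and stromelysins, which cut denatured collagen and many matrix proteins, were not called. Mmp2 had 618 to 1458 reads in Proton and 487 to 1332 in Gamma, with a common slope of 0.07 ± 0.14 (adjusted p = 0.858, edgeR). Mmp3 had 391 to 944 reads in Proton and 311 to 753 in Gamma, with -0.07 ± 0.13 (adjusted p = 0.831, edgeR). Mmp9 had 13 to 61 reads in a mouse and -0.38 ± 0.18 (adjusted p = 0.174, edgeR), and Mmp11 -0.11 ± 0.09 (adjusted p = 0.491, edgeR).

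For Mmp2 and Mmp3 the spread over all mice was far above counting error, which was not so for every member. Mmp16, with a mean of 39.0 reads, had a CV of 15.65% where counting alone gives 16.01%. The CV over the 20 mice was 29.2% for Mmp2, where counting alone gives 3.43%, and 27.4% for Mmp3, where it gives 4.22%.

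Of the ADAMs with a protease, 1 of 8 rose and 1 fell in the common slope, where 11.9% and 5.77% of all tested genes did. Adam10, the sheddase of Notch receptors and cadherins, had 360 to 550 reads in Proton and 346 to 517 in Gamma, with a common slope of 0.14 ± 0.05 (adjusted p = 0.0778, edgeR). The rise lay at the top, since the slope over 0 to 125 cGy was -0.01 ± 0.08, and 10 of the 20 omissions of a mouse ended the call, with an adjusted p of up to 0.310. Adam17, the sheddase of TNF and of EGF receptor ligands, varied little between mice and had 0.15 ± 0.05 in Proton (adjusted p = 0.232), 0.04 ± 0.05 in Gamma (adjusted p = 0.825) and 0.09 ± 0.04 in common (adjusted p = 0.144), by edgeR. Adam9 had the lowest CV of the members, at 7.35%, and a common slope of 0.06 ± 0.04 (adjusted p = 0.473, edgeR).

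Adam33, a gene of smooth muscle and fibroblasts, had 696 to 1459 reads in Proton and 874 to 1356 in Gamma, and fell with a common slope of -0.22 ± 0.07 (adjusted p = 0.0574, edgeR), a call that was lost without the Proton mouse at 5 or 150 cGy or the Gamma mouse at 200 cGy, with an adjusted p of up to 0.173. Among the ADAMs that lack an intact catalytic site and act in cell adhesion, Adam11 fell, at -0.30 ± 0.11 (adjusted p = 0.0756, edgeR), a call that 7 of the 20 omissions of a mouse ended, with an adjusted p of up to 0.164. Adam22 was not called, at 0.10 ± 0.18 (adjusted p = 0.824, edgeR).

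Of the inhibitors none rose and 1 of 4 fell in the common slope, where 11.9% and 5.77% of all tested genes did. Timp2 had 4698 to 6925 reads in Proton with a median of 5670 and 3752 to 7133 in Gamma with a median of 5580.5. The unirradiated mice had the highest counts of each type, 6925 and 7133. The common slope was -0.18 ± 0.06 (adjusted p = 0.0716, edgeR), and 6 of the 20 omissions of a mouse ended the call, those of each mouse at 0, 150 or 200 cGy, with an adjusted p of up to 0.144.

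Timp3 had 7979 to 13532 reads in Proton with a median of 12664 and 11002 to 14109 in Gamma with a median of 11543, and a common slope of -0.03 ± 0.06 (adjusted p = 0.822, edgeR). Timp1 had 69 to 151 reads in Proton and 51 to 122 in Gamma, with -0.17 ± 0.12 (adjusted p = 0.429, edgeR). Timp4 had 39 to 139 reads in Proton and 42 to 196 in Gamma. Its slopes pointed in different directions, -0.59 ± 0.32 in Proton and 0.30 ± 0.33 in Gamma, with wide errors and an adjusted p of 0.463 and 0.722 in edgeR.

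Single mice stood apart for a few members, named here after their values were seen. The Proton mouse at 75 cGy had 138 reads of Adam12, 240 of Mmp19 and 152 of Mmp15, against at most 72, 135 and 74 in the 19 others, and the lowest Timp3 count, 7979. The Gamma mouse at 100 cGy was the next highest for Adam12 and Mmp19. The same 2 mice had the most of the 8 white fat markers, with sums of 7152 and 2651 CPM against a median of 1041 in Proton and 1006 in Gamma, and of the brown fat marker Ucp1, with 1150 and 399 CPM. The aorta is surrounded by fat, and the slopes were also fitted with the brown fat score as a covariate and without both mice at 75 cGy, a fit that keeps the Gamma mouse at 100 cGy.

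**Figure D5:**
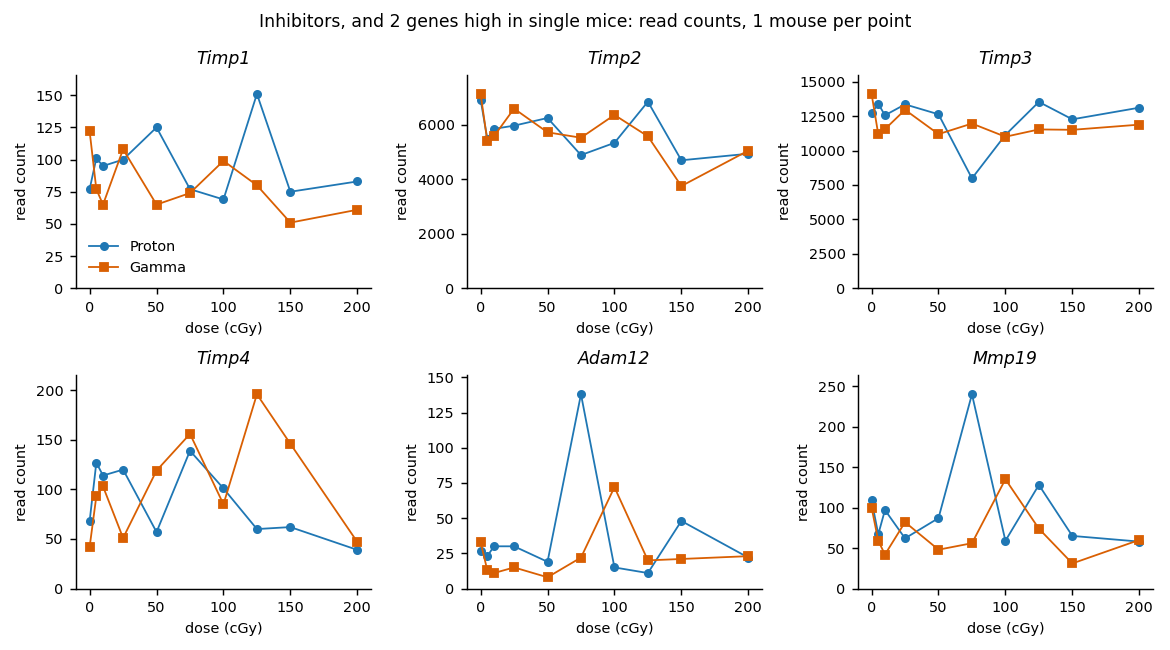
Read counts against dose in cGy for the 4 inhibitors, Adam12 and Mmp19, with 1 point for each mouse and a line for each type. Adam12 and Mmp19 peak at 138 and 240 in the Proton mouse at 75 cGy, where Timp3 is lowest at 7979.

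A group of members varied between mice together with fibroblast markers. The log2 CPM of each of the 13124 tested genes was correlated with the mean log2 CPM of the 8 fibroblast markers and of the 8 white fat markers over the 20 mice, 26248 relations in all, a comparison chosen after the data were seen. For the fibroblast score 13 of the 46 members were positive at an adjusted p of 0.1 or less for both coefficients, against 6.63% of all tested genes (permutation test with 100000 resamples, two-sided, Benjamini-Hochberg over all relations). None was negative, against 2.70% of all, and 33 members did not pass. The positive members were Mmp2, Mmp3, Mmp9, Mmp19, Timp1, Timp2, Adamts2, Adamts7, Adamtsl1, Adamtsl2, Adam5, Adam15 and Adam22.

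For Mmp3 Pearson's r was 0.829 (p = 4e-05, adjusted p = 0.00225) and rho 0.871 (p = 1e-05, the smallest the permutations can give, adjusted p = 0.00196), by the permutation test. For Mmp2 r was 0.795 (p = 7e-05, adjusted p = 0.00318) and rho 0.826 (p = 3e-05, adjusted p = 0.00358), by the permutation test. For Timp2 r was 0.830 (p = 1e-05, adjusted p = 0.000979) and rho 0.710 (p = 0.0007, adjusted p = 0.0232), by the permutation test. Without the 2 mice farthest from the median score, the Gamma mice at 0 and 150 cGy, r was 0.826, 0.788 and 0.674. Over the 16 mice at 0 to 125 cGy r was 0.849, 0.745 and 0.698, and over the 13 members it was at least 0.401 there, 0.488 within Proton and 0.611 within Gamma.

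The score was lowest, at 7.48, in the Gamma mouse at 150 cGy and highest, at 9.11, in the unirradiated Gamma mouse, and Col1a1 and Col1a2, named above, are part of it. Other scores differed between these 2 mice in both directions. Those of macrophage (2.78 and 5.03), endothelial (5.32 and 6.07), red blood cell (1.54 and 7.32), neutrophil, cartilage and brown fat markers went the same way. Those of smooth muscle (10.97 and 10.64), white fat (5.83 and 5.42), skeletal muscle (1.905 and 1.015) and nerve markers (3.79 and 2.71) went the opposite way. Of these other scores only the white fat score was tested against the members. Of the members that fell with dose, Timp2, Adamts2 and Adamtsl2 were among the 13 above, and the part of the cell type markers in their slopes was not tested.

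For the white fat score no member passed, where 3.95% of tested genes were positive and 0.693% negative. Adam12 had r of 0.749 (p = 0.00043, adjusted p = 0.0104) and rho of 0.546 (p = 0.0138, adjusted p = 0.141) by the permutation test, and r of 0.335 without the Proton mouse at 75 cGy and the Gamma mouse at 100 cGy. In the opposite direction Timp3 had r of -0.776 (adjusted p = 0.0169) and rho of -0.417 (adjusted p = 0.335) by the permutation test. Without the same 2 mice its r was -0.301. Mmp15, Mmp19 and Adamts14, with r of 0.682, 0.580 and -0.609, also reached the threshold for r but not for rho.

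Genes that act on the proteases were listed beside them. Of 15 tested regulators of metalloproteinases none rose and 3 fell in the common slope, where 11.9% and 5.77% of all tested genes did. They were Furin, the convertase that activates many of these enzymes (-0.19 ± 0.05), Lrp1, a receptor that takes up MMPs and TIMPs (-0.21 ± 0.06), and Rhbdf1, a partner of Adam17 in its transport (-0.22 ± 0.07), with adjusted p of 0.0200, 0.0240 and 0.0375 in edgeR. Their GC contents of 58.3, 57.9 and 60.4% lie in the range of the members that fell, and with GC and length offsets none passed (adjusted p = 0.206, 0.117 and 0.443, edgeR). Over 0 to 125 cGy the slopes were -0.02, -0.03 and -0.28. Of 5 tested genes of the plasminogen system 1 fell, the urokinase receptor Plaur (-0.26 ± 0.10, adjusted p = 0.0910, and 0.218 with GC and length offsets, edgeR). None of the 8 tested cathepsins and cystatins and none of the 18 membrane proteins known to be shed by ADAMs was called.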

How the data were processed

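Libraries were stranded and poly(A)-selected, and the authors mapped read pairs of 100 bases against mm9 (STAR 2.5.2a), with PORT used to draw the same number of reads from each library. The deposited sense-strand gene counts were used unchanged. This step leaves relative abundance only, so a gene that takes more reads lowers the share of the others. The sense and antisense strands were counted apart. Depth was 6051657 to 6058006 counts per mouse. A floor of 3 counts (4.95e-05% of a library) was set for counting error only, and lower counts occur in the data. Intervals in the table run 202 bases past each end of the GENCODE M1 genes of the same build, whose coordinates are given.

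Slopes were fitted in edgeR 4.0.16 with TMM factors on all 13124 genes with a mean count of 5 or more, with an intercept and a slope for each type, or with 1 common slope. Matched doses were compared with dose as a block. The threshold was a Benjamini-Hochberg adjusted p of 0.1. The exact one-sided permutation test of Spearman's rho used CPM within each type. Fits and tests were tested on simulated counts. GC content and promoter letters came from the reference tables. Members, roles and lists were chosen with earlier results of these data known. Members with values are those called in any test, those with an unadjusted p under 0.05 in a slope, all TIMPs and the 2 of highest mean count in each role, and genes of the lists where called. Alternatives were DESeq2 1.42.0, no TMM factors, other filters, dose scales and ranges, thresholds, a brown fat covariate, GC and length offsets, and leaving out mice. The marker correlations used log2(CPM + 0.1).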

Additional observations from a re-analysis of the deposited data

Results flagged for a closer look

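In groups of 10 mice, 8 of 62 checked sets of values had a mouse whose gap to its nearest neighbour was past Dixon's critical value. The gap was taken as a share of the whole range. The usual rate of about 1 in 20 holds for independent draws from 1 distribution. Each set here spans 10 doses and the sets share the same 20 mice, so 8 of 62 cannot be set against that rate. Adamts1 had 2434 reads in the Proton mouse at 150 cGy, with 1552 in the next. Adamts6 had 172 in the Gamma mouse at 150 cGy, with 92 in the next, and Mmp14 had 354 in the same mouse, below the next at 441. Adamts14 had 144 in the Proton mouse at 5 cGy, Mmp11 had 150 in the Proton mouse at 100 cGy and Mmp2 had 1458 in the Proton mouse at 125 cGy, each the highest of its type. In the Proton mouse at 75 cGy, which had the highest fat marker sums, Mmp9 was highest at 61 and Timp3 lowest at 7979.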

How the results depend on the processing

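The cause of the changes given here was not tested. Members falling in Proton (2 as reported) numbered 0 with a filter of 1 count, with dose as log2(dose + 1) or as its rank, over 0 to 125 cGy, with GC content and length offsets, at an adjusted p of 0.05 and by the exact trend test, and 8 with the brown fat covariate. Members rising in Gamma (2) numbered 0 with dose as log2(dose + 1), over 0 to 125 cGy, with GC content and length offsets and at 0.05, and 1 by the exact trend test. Members falling in Gamma (3) numbered 5 in DESeq2, with a mean count of 50 or more and with the brown fat covariate, 6 without the pair at 75 cGy, 1 by the exact trend test, and 0 with dose as log2(dose + 1) and over 0 to 125 cGy. With GC content and length offsets 2 fell in Gamma. For the Gamma slope DESeq2 gave no adjusted p for 8 members. Members rising in common (3) numbered 0 with dose as log2(dose + 1) and over 0 to 125 cGy. Members falling in common (13) numbered 1 with dose as log2(dose + 1), 0 over 0 to 125 cGy, 5 with GC content and length offsets and 8 at 0.05. The exact trend test on counts in place of CPM, added after the data were seen, gave 0 members falling in Gamma where it gave 1 on CPM. Leaving out each mouse gave 0 to 5 members falling in Proton, 0 to 2 rising and 0 to 6 falling in Gamma, and 2 to 4 rising and 4 to 15 falling in common. In Gamma 0 rose without the Gamma mouse at 0, 5, 150 or 200 cGy and 0 fell without the one at 150 or 200 cGy. The 4 rising in common came without the Gamma mouse at 125 cGy, and the 4 falling in common without the one at 200 cGy. The common calls of Adamts1, Adamts6, Adamts8, Adamtsl4, Adamtsl5 and Mmp28 were kept without each of the 20 mice, and those of all 16 members in DESeq2 and without TMM factors. The slope of Adam10 turned over 0 to 125 cGy, to -0.0097. Without the dose block the comparison at matched doses still gave 0 members. With 1 mouse per dose, a step at a single dose cannot be told from the spread between mice.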

Other observations

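Markers of other cell types gave few calls. In the common slope the smooth muscle gene Smtn fell (-0.28 ± 0.08) and Myocd, a coactivator of smooth muscle genes, rose (0.90 ± 0.19), with adjusted p of 0.0243 and 0.00419 in edgeR. The nerve marker Pmp22, which is also expressed outside nerve, fell (-0.17 ± 0.04, adjusted p = 0.0131, edgeR). With GC and length offsets Smtn did not pass (adjusted p = 0.156, edgeR), and over 0 to 125 cGy none of the 3 passed. No endothelial, macrophage, fat, neutrophil, skeletal muscle, cartilage or red blood cell marker was called, while the endothelial sum ran from 400.4 to 1391 CPM and the macrophage sum from 54.8 to 353.8 CPM over the 20 mice.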
